A study of Mus musculus with 6 samples.

Results

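Lin28a, Lin28b, Trim71, Hmga1, Hmga2, Igf2bp1, Igf2bp2 and Igf2bp3 are the 8 genes described here, chosen by name from 3 oncofetal families of RNA- or chromatin-binding proteins together with Trim71, and all of them were found among the 28584 gene symbols of the expression table. Oncofetal genes are active in the embryo, mostly silent in adult tissue and often active again in tumours. RNA was sequenced from mouse embryonic stem cells (mESCs) of 1 line, derived from C57BL/6 × 129S6 embryos and kept first on inactivated embryonic fibroblasts in serum with LIF. The cells then went through 10 passages (P10) in basic medium alone (-LIF-ESCs), in that medium with 1000 U/mL LIF (LIF-ESCs) or with 10 ng/mL OSM in its place (OSM-ESCs), with 2 libraries in each group. All 3 groups share the line and the serum-containing basic medium, so the only labelled difference is the cytokine. The replicates come from the same line rather than from different lines. The study asked whether OSM, a cytokine related to LIF, can hold mESCs in the naive state.

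LIN28A and LIN28B bind the precursors of the let-7 microRNAs, recognise a GGAG element in the loop, and block their maturation, in the cytoplasm together with enzymes that add a tail of uridines and an exonuclease that degrades the tailed precursor. Mature let-7 in turn silences mRNAs that carry a match to its seed, and the Lin28, Hmga and Igf2bp genes and Trim71 are textbook let-7 targets, so that the families form a double-negative loop that separates embryonic from adult cells. TRIM71 is an RNA-binding ubiquitin ligase of the early embryo, the HMGA proteins are architectural factors of chromatin that bind AT-rich DNA, and the IGF2BP proteins bind mRNAs such as those of Igf2 and Myc and act on their stability, transport and translation.

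The let-7 family is defined by its seed, bases 2 to 8 of the mature microRNA, which is shown in capitals in the 3 mature sequences below because all the matches described next are to these letters. Of the mature microRNAs listed for mouse by RefSeq (GRCm38.p6), 13 entries carried this seed. The 3 shown lie together on chromosome 13, on the minus strand, at chr13:48538239-48538260, chr13:48536078-48536099 and chr13:48537889-48537910.
let-7a-5p: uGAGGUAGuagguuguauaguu
let-7d-5p: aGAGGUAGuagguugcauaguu
let-7f-5p: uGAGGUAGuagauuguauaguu
The hairpin of Mirlet7d (chr13:48536012-48536114, minus strand) is shown with its GGAG element, the one known to be read by LIN28, in capitals.
Mirlet7d hairpin: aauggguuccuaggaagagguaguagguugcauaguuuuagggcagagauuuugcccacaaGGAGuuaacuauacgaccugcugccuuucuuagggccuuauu

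Each of the 8 oncofetal genes had at least 1 match to the let-7 seed (the letters CTACCTC) in its longest 3′ UTR of the GENCODE M21 annotation of GRCm38, and 7 of them also had the 8-base match CTACCTCA. Over the 21020 protein-coding genes with a 3′ UTR, 9.02% had the 7-base match and 3.06% the 8-base match. The UTRs of the oncofetal genes were longer than the median of 961 bases. Among UTRs within 20% of each one's length, the share with a 7-base match was still only 8.07% for Hmga1, whose UTR is the shortest of the 8 at 1183 bases, and 33.7% for Igf2bp1, whose UTR is the longest at 6337 bases. Lin28b, Trim71, Hmga2 and Igf2bp1 held 4 matches each, a number reached by 0.236%, 0.504%, 0.134% and 0.355% of UTRs of like length. All 4 matches of Trim71 were of the 8-base kind, and 2 of them stood close together, at 3591 and 3617 bases past the stop codon. One site of each gene, with the match in capitals, is shown to place it in its transcript. The sites, written 5′ to 3′ on the strand of the gene, began 909 (Lin28a), 36 (Lin28b), 166 (Trim71), 801 (Hmga1), 58 (Hmga2), 1715 (Igf2bp1), 1313 (Igf2bp2) and 548 (Igf2bp3) bases past the stop codon.
Lin28a (chr4:134005184-134005211): gcacagcctgttgaaCTACCTCAttttt
Lin28b (chr10:45381017-45381044): acccgggcgggaagtCTACCTCAtgcaa
Trim71 (chr9:114512467-114512494): aacattgcctaagtcCTACCTCAgctta
Hmga1 (chr17:27563277-27563304): tcctctgttcacaaaCTACCTCtggacg
Hmga2 (chr10:120364219-120364246): gccgacattcaatttCTACCTCAgcatc
Igf2bp1 (chr11:95961773-95961800): gctgtgcgaagtaaaCTACCTCAaggtg
Igf2bp2 (chr16:22059468-22059495): acacacaaataaaagCTACCTCAggtgt
Igf2bp3 (chr6:49086782-49086809): tgcatttttactcaaCTACCTCAggtat
Hmga1 is the exception without the final A. These matches are letters in an annotated UTR and were not tested as sites of regulation in these cells.

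**Figure D1:**
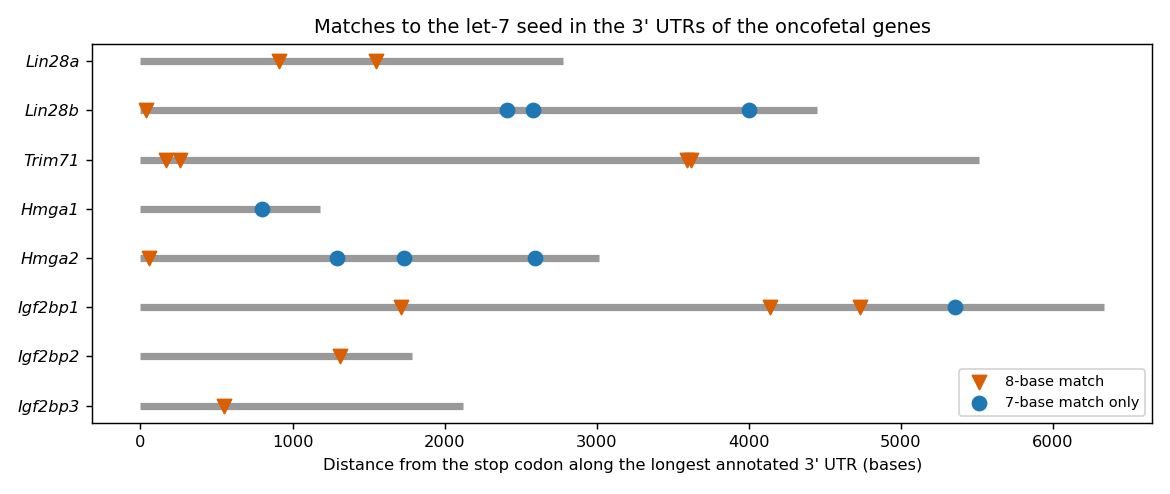
Positions of let-7 seed matches along the longest annotated 3′ UTR of each oncofetal gene, in bases from the stop codon; grey bars are the UTRs, triangles the 8-base matches and circles the matches of 7 bases only. Lin28b, Trim71, Hmga2 and Igf2bp1 carry 4 matches each, and the first match of Lin28b and of Hmga2 lies 36 and 58 bases past the stop codon.

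Expression is given in TPM, in which each gene's reads are divided by its length and each library is then scaled to 1 shared total. From TPM and exon length, 20712941 to 28994417 reads per library were recovered, and for the 6 oncofetal genes whose reads came out whole these ranged from 1039 (Lin28b) to 16611 (Lin28a) in a library. Differences are log2 fold changes of TPM + 1, fitted with limma over 18556 genes that reached 1 TPM in 2 or more libraries and adjusted by the Benjamini-Hochberg method. All 8 oncofetal genes passed that filter in every library. An exact two-sided permutation test of 2 libraries against 2 cannot go below p = 0.333, so that the adjusted p-values depend on limma's model. Groups that do not overlap are therefore only described, and the share of all genes that separate in this way was not counted. The median gene of all those tested stood at a log2 fold change of 0.165 with LIF and 0.182 with OSM, both against -LIF-ESCs, and at 0.00768 with OSM against LIF.

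By the adjusted p alone, 4 oncofetal genes (Lin28a, Trim71, Hmga1 and Hmga2) were higher and 1 (Igf2bp2) was lower in LIF-ESCs than in -LIF-ESCs, while 42.2% of all genes tested were higher and 25.9% lower by the same rule. The same 4 were higher and the same 1 was lower in OSM-ESCs, where the shares of all genes were 42.9% and 25.4%. With a log2 fold change of at least 1 required as well, 1 oncofetal gene (Hmga1) was higher and 0 lower in LIF-ESCs, against 13.3% and 8.09% of all genes, and 3 (Lin28a, Hmga1 and Hmga2) were higher and 0 lower in OSM-ESCs, against 14.2% and 7.86% of all genes. The median log2 fold change of the 8 was 0.47 in both comparisons. By the adjusted p alone the counts lie near the share of all genes, while with the fold limit the 3 of 8 in OSM-ESCs lie above it, and the comparisons share their -LIF-ESC libraries. That count of 3 depends on the processing. Lin28a was at 0.81 after the libraries were rescaled by their median ratio, and Hmga1 at 0.76 with the reads of its copy Hmga1b added. With OSM set directly against LIF, 0 of the 8 passed the adjusted p in limma in either direction, where 0.463% of all genes were higher and 0.129% lower by the adjusted p alone and 0.0323% and 0.0485% with the fold limit as well. At an unadjusted p under 0.05, 3 of the 8 (Lin28a, Hmga1 and Hmga2) and 2838 of all genes would pass.

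**Figure D2:**
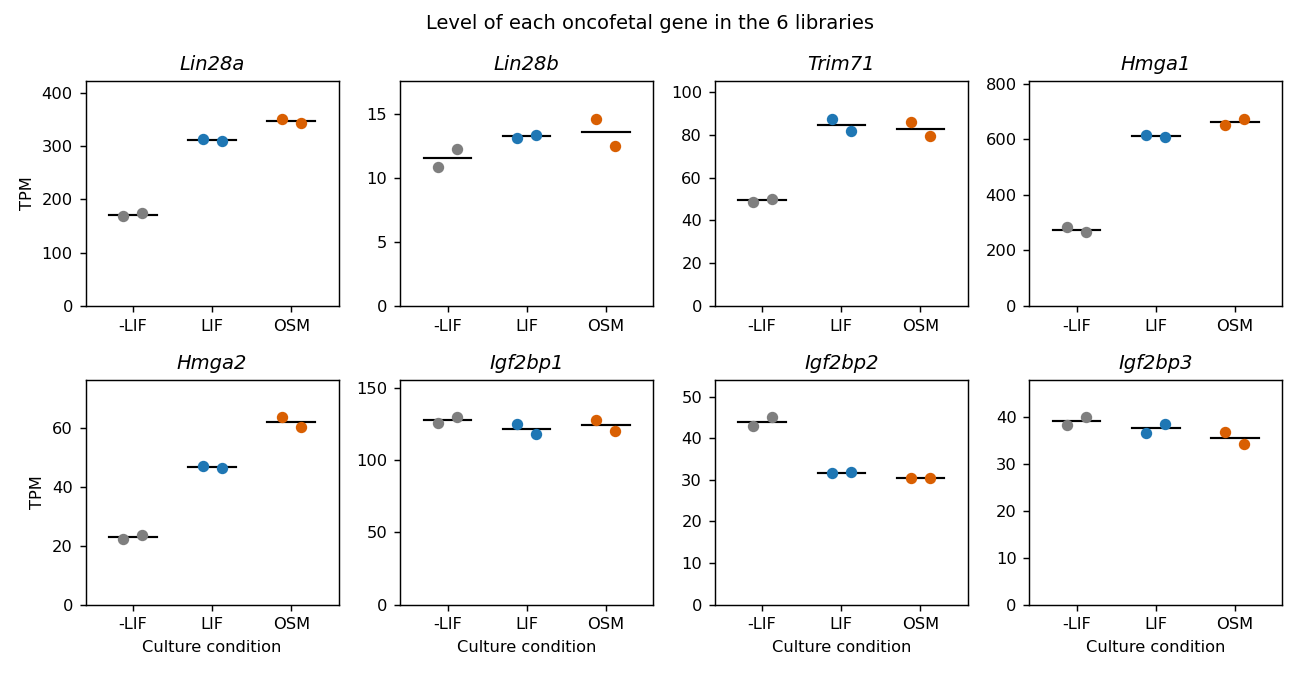
TPM of the 8 oncofetal genes (vertical axis from 0, 1 scale per panel) in the -LIF, LIF and OSM libraries; each point is 1 library and the bar is the mean of 2. Lin28a, Lin28b, Trim71, Hmga1 and Hmga2 lie lower in both -LIF libraries than in any other, and Igf2bp2 lies higher there. The differences of Lin28b did not pass the adjusted p. Lin28a, Hmga1 and Hmga2 lie higher in both OSM libraries than in both LIF libraries, by the largest ratio for Hmga2 (1.32-fold). Igf2bp2 lies lower in both OSM libraries than in both LIF libraries. None of these differences between OSM and LIF passed the adjusted p. The share of all genes that separate in these ways was not counted.

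Lin28a (chr4:134003330-134018841, minus strand), the cytoplasmic let-7 blocker of pluripotent cells, was among the most abundant mRNAs. It was at 168 and 175 TPM in the 2 libraries without cytokine, 314 and 309 with LIF and 352 and 343 with OSM. No 2 groups overlapped, and even the lower level of -LIF-ESCs (172 ± 4.60 TPM, SD, n = 2) was above that of 95.9% of the genes tested. The mean with LIF was 1.82-fold and the mean with OSM 2.02-fold that of -LIF-ESCs. The log2 fold changes were 0.86 ± 0.03 (SE, limma adjusted p = 2.34e-05) and 1.01 ± 0.03 (limma adjusted p = 1.42e-05). The value in OSM-ESCs stands just past the fold limit of 1, and was 0.81 after the libraries were rescaled to a common median ratio. OSM-ESCs exceeded LIF-ESCs by a log2 fold change of 0.16 (95% interval 0.07 to 0.24), with an adjusted p of 0.146 in limma.

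Lin28b (chr10:45376620-45486395, minus strand), the paralogue that acts mainly in the nucleus and is known as the more frequent form in tumours, was the lowest of the 8 genes. It was at 10.9 and 12.3 TPM without cytokine, 13.1 and 13.4 with LIF and 14.7 and 12.6 with OSM. The -LIF-ESC libraries were the lowest, but the OSM-ESC libraries spread on both sides of those in LIF. The log2 fold changes against -LIF-ESCs were 0.18 ± 0.10 (SE, 95% interval -0.06 to 0.42, limma adjusted p = 0.151) in LIF-ESCs and 0.21 ± 0.10 (95% interval -0.03 to 0.45, adjusted p = 0.104) in OSM-ESCs. Neither passed the test, and both lie close to the median of all genes. The Lin28a to Lin28b ratio of TPM was 14.8 ± 0.861 (SD, n = 2) without cytokine, 23.5 ± 0.653 with LIF and 25.6 ± 2.36 with OSM, so that Lin28a was the dominant paralogue in every library.

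Trim71 (chr9:114507133-114564369, minus strand) was at 48.8 and 50.001 TPM without cytokine, 87.5 and 81.5 with LIF and 85.9 and 79.2 with OSM. Both cytokine groups stood above -LIF-ESCs without overlap, and overlapped each other. The means were 1.71-fold and 1.67-fold those of -LIF-ESCs, with log2 fold changes of 0.76 ± 0.06 (SE, limma adjusted p = 0.000176) and 0.73 ± 0.06 (adjusted p = 0.000207). The difference between OSM-ESCs and LIF-ESCs was -0.03 with a 95% interval from -0.18 to 0.11.

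Hmga1 (chr17:27556497-27563674, plus strand) had the highest TPM of the 8 in every library. It was at 284 and 266 TPM without cytokine, 615 and 606 with LIF and 649 and 674 with OSM. The groups did not overlap, and the means were 2.22-fold and 2.41-fold those of -LIF-ESCs. The log2 fold changes were 1.15 ± 0.04 (SE, limma adjusted p = 1.84e-05) in LIF-ESCs and 1.26 ± 0.04 (adjusted p = 1.33e-05) in OSM-ESCs, and OSM-ESCs exceeded LIF-ESCs by 0.12 (95% interval 0.01 to 0.22, adjusted p = 0.298).

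These values carry a limit, because Hmga1 shares sequence with Hmga1b (chr11:120762794-120764419), an annotated copy of it. Of all windows of 50 bases in the Hmga1 transcripts, 55.0% also lay in Hmga1b, and 89.0% of the Hmga1b windows lay in Hmga1. How reads matching both were counted is not given in the sources used here. Hmga1b was listed at 362 and 356 TPM without cytokine, 318 and 324 with LIF and 343 and 366 with OSM, so it did not follow Hmga1, and the Hmga1b to Hmga1 ratio was 1.31 without cytokine, 0.526 with LIF and 0.535 with OSM. With the reads of both summed, an alternative added after seeing the data, the log2 fold change against -LIF-ESCs was 0.64 (limma adjusted p = 7.09e-05) in LIF-ESCs and 0.76 (adjusted p = 3.94e-05) in OSM-ESCs. The direction held and the fold limit of 1 was no longer passed. For the other 7 genes, windows shared with another gene on the same strand were at most 0.768% (Hmga2).

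Hmga2 (chr10:120361275-120476469, minus strand), the oncofetal member in the stricter sense since HMGA1 is also found in many dividing cells, was at 22.2 and 23.8 TPM without cytokine, 47.2 and 46.3 with LIF and 63.7 and 60.2 with OSM. The 3 groups stood in 3 separate steps. The mean was 2.03-fold higher in LIF-ESCs than in -LIF-ESCs (log2 fold change 0.99 ± 0.05, limma adjusted p = 5.46e-05) and 2.69-fold higher in OSM-ESCs (1.39 ± 0.05, adjusted p = 2.01e-05). Its rise in OSM-ESCs was the largest of the 8 genes, above that of 92.3% of all genes tested. Hmga2 also had the largest difference between OSM-ESCs and LIF-ESCs, 1.32-fold or 0.40 ± 0.05 (SE, 95% interval 0.26 to 0.53), which missed the threshold at a limma adjusted p of 0.0616. That value passed with genes under 5 TPM left out (adjusted p = 0.0435) and with limma's voom on the recovered reads (adjusted p = 3.1e-07), and over all alternatives the adjusted p ran from 3.1e-07 to 0.288.

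**Figure D3:**
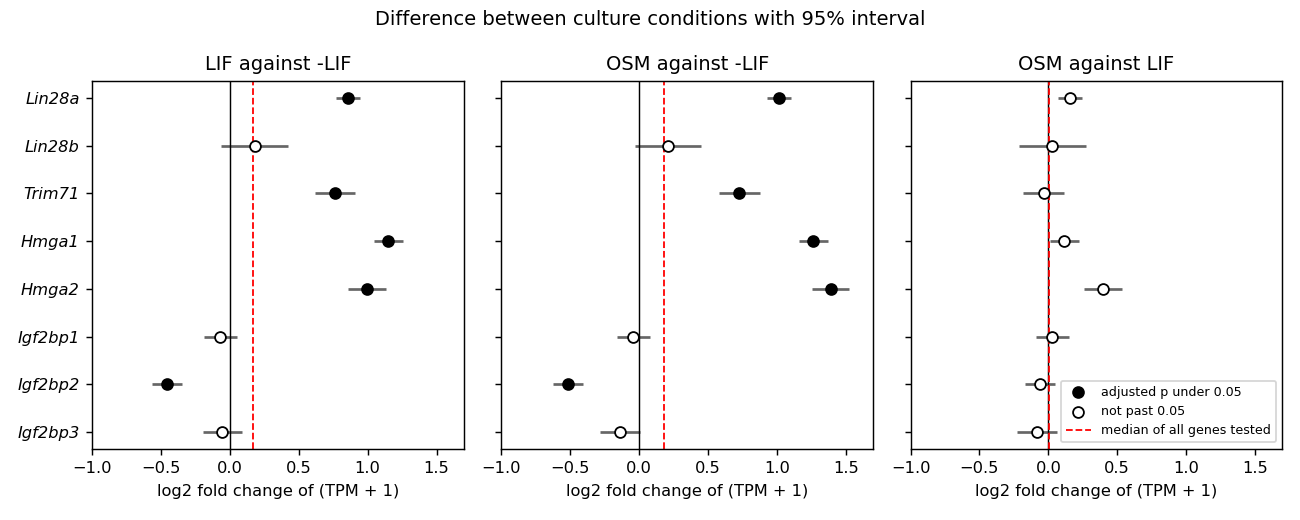
Log2 fold change of TPM + 1 of the 8 oncofetal genes in the 3 comparisons, with 95% intervals from limma; filled points have an adjusted p under 0.05 and the dashed line is the median of all genes tested. Lin28a, Trim71, Hmga1 and Hmga2 stand to the right and Igf2bp2 to the left against -LIF, and Hmga2 lies at 0.40 in OSM against LIF with an open point.

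None of the 3 Igf2bp genes was higher with either cytokine. Igf2bp1 (chr11:95957163-96005940, minus strand), the most abundant of the 3, was at 125.7 and 129.5 TPM without cytokine, 124.8 and 118 with LIF and 127.6 and 120.3 with OSM. All libraries lay within a narrow band, with the LIF-ESC libraries just below those of -LIF-ESCs. The log2 fold changes were -0.07 (95% interval -0.19 to 0.05, limma adjusted p = 0.233) in LIF-ESCs and -0.04 (95% interval -0.16 to 0.08, adjusted p = 0.464) in OSM-ESCs.

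Igf2bp2 (chr16:22059009-22163299, minus strand), the member known to persist in adult tissues, was the one that fell. It was at 42.9 and 45.0 TPM without cytokine, 31.6 and 31.8 with LIF and 30.4 and 30.3 with OSM. The -LIF-ESC libraries were the highest, without overlap, and the mean of LIF-ESCs and of OSM-ESCs was 0.721 and 0.691 of theirs. The log2 fold changes were -0.46 ± 0.04 (SE, limma adjusted p = 0.000394) and -0.52 ± 0.04 (adjusted p = 0.000247). OSM-ESCs and LIF-ESCs differed by -0.06 (95% interval -0.17 to 0.05).

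Igf2bp3 (chr6:49085223-49214957, minus strand) was at 38.3 and 40.0 TPM without cytokine, 36.7 and 38.6 with LIF and 36.9 and 34.2 with OSM. The LIF-ESC libraries overlapped those of -LIF-ESCs, and the OSM-ESC libraries lay just below them. The log2 fold changes were -0.05 (95% interval -0.20 to 0.09, limma adjusted p = 0.432) and -0.14 (95% interval -0.28 to 0.01, adjusted p = 0.0831). Whether Igf2bp1 and Igf2bp3 are called depends on the scaling. After rescaling by the median ratio, Igf2bp1 was at -0.26 (limma adjusted p = 0.00292) and -0.24 (0.00372) and Igf2bp3 at -0.24 (0.00767) and -0.33 (0.00218) in LIF-ESCs and OSM-ESCs, all lower than in -LIF-ESCs. Summed over the 3 genes, Igf2bp TPM was 211 ± 5.51 (SD, n = 2) without cytokine, 191 ± 3.16 with LIF and 190 ± 7.06 with OSM, and Igf2bp1 made up 60.6%, 63.6% and 65.3% of it.

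In level, the order from the top in LIF-ESCs and in OSM-ESCs was Hmga1, Lin28a, Igf2bp1, Trim71, Hmga2, Igf2bp3, Igf2bp2 and Lin28b. In -LIF-ESCs, Hmga2 stood below all 3 Igf2bp genes and Igf2bp2 stood above Igf2bp3. Neighbours in these orders did not overlap between libraries of 1 group. The place of Hmga1 rests on how its reads and those of Hmga1b were divided.

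Several oncofetal genes overlap annotated genes on the other strand, and the library kit named in the labels does not mark strand, so reads from the shared bases cannot be told apart. Malsu1, which encodes a mitochondrial ribosome assembly factor, ends inside the Igf2bp3 locus and shared 18.1% of the 50-base windows of the Igf2bp3 transcripts. It was at 39.9 to 51.5 TPM and, like Igf2bp3, was lowest in OSM replicate 2. Gm13061 overlaps the start of Lin28a, shared 4.72% of its windows and was at 97.9 and 85.8 TPM without cytokine, 178 and 181 with LIF and 196 and 216 with OSM, following the order of Lin28a. For Trim71 (C130032M10Rik), Hmga1 (AI413582) and Hmga2 (1700006J14Rik), the overlapping gene shared 0.98%, 2.08% and 1.39% of windows.

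The genes most like each oncofetal gene were sought as those with the smallest Euclidean distance between log2(TPM + 1) profiles over the 6 libraries, each centred on its own mean. This measure describes these 6 libraries of 3 groups only. For Lin28a the nearest was Arid1a (distance 0.0433), a subunit of the BAF chromatin remodeller, at 46.6 and 47.4 TPM without cytokine, 86.1 and 84.3 with LIF and 94.3 and 92.5 with OSM, followed by Platr21 (0.0655). For Trim71 these were Tmed5 (0.0386) and Sec61a2 (0.0401), for Hmga1 Ripk1 (0.0491) and Gm49369 (0.0662), and for Hmga2, with the least close neighbours of the 8, Slc7a2 (0.0974) and F3 (0.107), which encodes tissue factor. Lin28b was nearest to Fam98a (0.0584) and Clk1 (0.0684), Igf2bp1 to Reep5 (0.0327) and Gm13160 (0.0355), Igf2bp2 to Gnpat (0.0205) and Commd2 (0.0509), and Igf2bp3 to Kif20a (0.0377) and Cox7a2l (0.0443). Among the 8 themselves, Igf2bp1 and Igf2bp3 were the closest pair (0.161), then Lin28a and Trim71 (0.300), while Hmga2 and Igf2bp2 were 2.00 apart.

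Genes of microRNA maturation and let-7 turnover were listed from general knowledge, with 19 genes tested. The list holds general factors of microRNA processing as well as the enzymes that act with LIN28. Of these, 11 were higher and 4 lower by the adjusted p in LIF-ESCs than in -LIF-ESCs, with a median log2 fold change of 0.54, and 11 were higher and 5 lower in OSM-ESCs, also with a median of 0.54, beside medians of 0.165 and 0.182 over all genes, of which 42.2% were higher and 25.9% lower with LIF and 42.9% and 25.4% with OSM. Dgcr8, the RNA-binding partner of DROSHA, rose by a log2 fold change of 1.56 in both comparisons (limma adjusted p = 4.14e-05 and 3.99e-05). Ago2, the slicing Argonaute, was at 0.95 and 1.03, and Ddx17, a helicase of the DROSHA complex, at 1.19 and 1.05.

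The gene of this list that fell the most was Dis3l2, which encodes the exonuclease that degrades uridine-tailed let-7 precursors. It was at 12.9 and 12.6 TPM without cytokine, 3.93 and 4.18 with LIF and 3.74 and 3.85 with OSM. The cytokine libraries were all far below those of -LIF-ESCs, with log2 fold changes of -1.44 (limma adjusted p = 4.59e-05) and -1.52 (adjusted p = 3.81e-05), opposite in direction to Lin28a. Tut4, the main uridine-adding enzyme of the LIN28A pathway, was at -0.01 (adjusted p = 0.845) and -0.12 (0.0764), and Tut7, its paralogue, at 0.11 (0.232) and 0.15 (0.128). Msi1, an RNA-binding protein known to aid LIN28 in the nucleus, was at -0.0023 (0.975) in LIF-ESCs and passed the test in OSM-ESCs at -0.17 (0.0396). Prkra (-0.82 and -0.65), a DICER partner, and Hnrnpa1 (-0.45 and -0.50), which binds the let-7a-1 precursor, also fell. In the limma test of OSM-ESCs against LIF-ESCs, 0 of the 19 passed in either direction, beside 0.463% of all genes higher and 0.129% lower. At an unadjusted p under 0.05 there were 4 of the 19 and 2838 of all 18556 genes tested.

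The let-7 genes themselves were close to the limit of these libraries, which were made from poly(A) RNA and do not measure mature microRNAs. The gene model of Mirlet7d, whose hairpin is printed above, held 0 and 2 reads without cytokine, 13 and 9 with LIF and 18 and 16 with OSM. Counted per recovered read, this was 11.2 times (95% interval 2.76 to 98.6, exact binomial) the -LIF-ESC level in LIF-ESCs and 14.4 times (3.69 to 124) in OSM-ESCs, and these intervals cover counting error only. Mirlet7f-1, its neighbour on chromosome 13, held 0 and 5, 11 and 13, and 5 and 16 reads. Together with Mirlet7a-1, the cluster held 0 and 7 reads without cytokine, 24 and 24 with LIF and 28 and 33 with OSM. The few reads over these loci were more in the groups with more Lin28a, and every other let-7 model with its own row held at most 3 reads in a group.

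Of 26 other genes widely listed as let-7 targets, 11 were higher and 9 lower in LIF-ESCs than in -LIF-ESCs (median log2 fold change 0.03), and 10 were higher and 9 lower in OSM-ESCs (median 0.06). Over all genes the shares were 42.2% and 25.9% with LIF and 42.9% and 25.4% with OSM, so that the share of higher genes stands near the background. Mycn was at 79.7 ± 1.12 TPM (SD, n = 2) without cytokine, 261 ± 4.74 with LIF and 282 ± 1.80 with OSM, and Myc at 10.1 ± 0.720, 32.5 ± 2.27 and 39.6 ± 0.284. Thbs1, an extracellular matrix protein, was at log2 fold changes of 2.07 and 2.55 and the cyclin gene Ccnd2 at 1.63 and 2.13. Il6, a cytokine of the same family as LIF and OSM, was listed at 0 in both -LIF-ESC libraries and at 5.88 and 3.65 TPM with LIF and 7.18 and 5.13 with OSM. Irs2, an insulin receptor substrate, fell with log2 fold changes of -3.20 and -2.87, and so did Arid3a (-1.11 and -1.29). With OSM set against LIF, 2 of the 26 passed the test, Ccnd2 (0.50, limma adjusted p = 0.0358) and Thbs1 (0.48, adjusted p = 0.026), both higher with OSM, as was the direction of Hmga2. Of all genes tested, 0.463% were higher and 0.129% lower by the adjusted p in that comparison.

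Partners and bound RNAs of the IGF2BP proteins came to 16 genes, of which 10 were higher and 2 lower in each comparison with -LIF-ESCs (median log2 fold changes 0.45 and 0.41), beside 42.2% and 25.9% of all genes with LIF and 42.9% and 25.4% with OSM. Their best known cargo, Igf2, was at 48.2 and 50.8 TPM without cytokine, 91.8 and 85.3 with LIF and 119.9 and 113 with OSM. These are 3 separate steps in the order of Hmga2, with log2 fold changes of 0.83 and 1.22 against -LIF-ESCs, and 0.39 between OSM-ESCs and LIF-ESCs (limma adjusted p = 0.0672). H19, the non-coding RNA next to Igf2, which also binds IGF2BP proteins, went the other way, at 825 and 834 TPM without cytokine, 64.5 and 64.0 with LIF and 74.5 and 71.1 with OSM. Cd44, a cell surface receptor whose mRNA is bound by IGF2BP proteins, was at log2 fold changes of 2.48 and 2.93, Hnrnpu at 1.14 and 1.10, and Elavl1, which encodes the mRNA-stabilising protein HuR, at -0.52 and -0.56. In OSM-ESCs against LIF-ESCs, 0 of the 16 passed the adjusted p in limma, beside 0.463% of all genes higher and 0.129% lower. At an unadjusted p under 0.05 there were 3 of the 16 and 2838 of all 18556 genes tested.

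Of 12 other fetal or tumour-associated genes tested, 3 were higher and 6 lower in LIF-ESCs (median -0.61) and 5 higher and 6 lower in OSM-ESCs (median -0.53), a median on the other side of 0 from that of the 8 oncofetal genes. Of all genes, 42.2% and 25.9% were higher and lower with LIF and 42.9% and 25.4% with OSM. Sall4, a pluripotency factor that is reactivated in tumours and also stands on the let-7 target list, was at 1.34 and 1.24, while Peg3 (-2.56 and -2.36), Gpc3 (-1.65 and -1.79) and H19 (-3.67 and -3.49) fell. Igf2 and H19 are on both of these last lists.

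**Figure D4:**
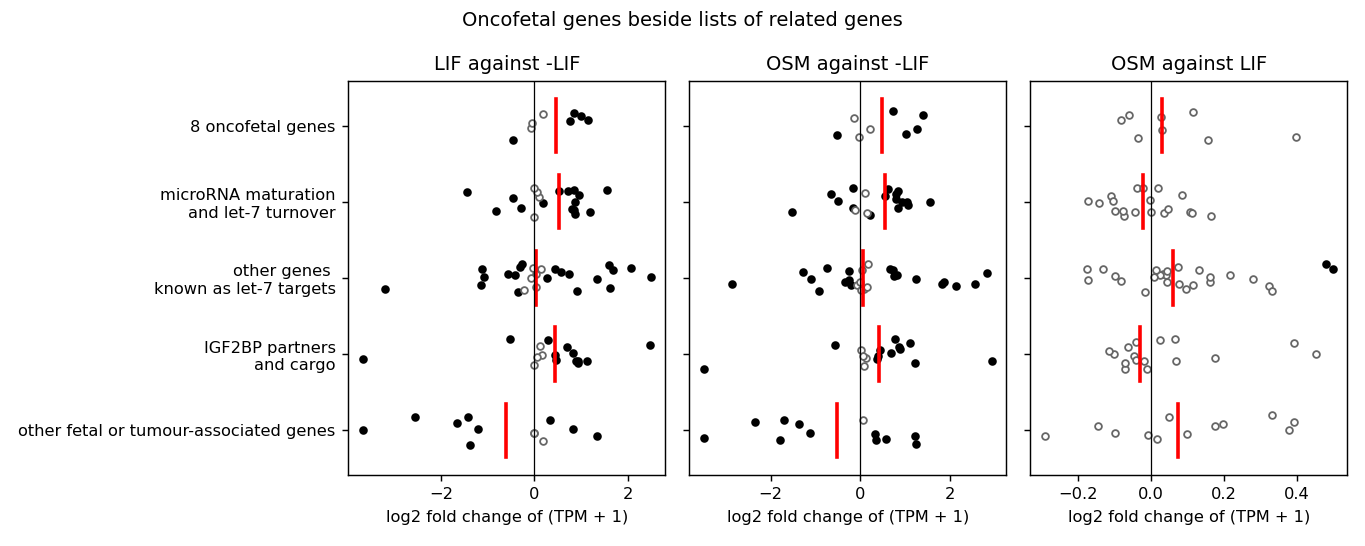
Log2 fold change of TPM + 1 of each gene tested in the 8 oncofetal genes and 4 lists of related genes, in the 3 comparisons (the right panel has a narrower axis); points are genes, filled where the limma adjusted p is under 0.05, and the red bar is the list's median. The 2 filled points on the right panel are Ccnd2 and Thbs1 among the other let-7 targets.

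Markers of cell types were summed to set the oncofetal genes beside the make-up of the cultures, since in bulk RNA fewer cells of a type and less RNA per cell cannot be told apart. The 12 stem cell markers summed to 5747 to 5761 TPM without cytokine, 7919 to 8007 with LIF and 7381 to 7414 with OSM, and 0 of the 12 were at 0 in all libraries. By the adjusted p, 10 of the 12 were higher and 1 was lower with either cytokine. The lower one was Nanog, at 433 TPM without cytokine, 290 with LIF and 261 with OSM. Dppa5a, the largest part of the sum, was nearly level at 2942, 3060 and 2901 TPM. The order of the stem cell sum differed from that of Lin28a, Hmga1 and Hmga2, since the sum was lower with OSM than with LIF. The 18 primitive endoderm and trophoblast markers found in the table summed to 2425 to 2442 TPM in -LIF-ESCs against 167 to 181 in the other groups. Most of that sum without cytokine came from the keratin genes Krt8 (982 TPM), Krt18 (765 TPM) and Krt19 (564 TPM). By the adjusted p, 9 of the 17 tested were higher and 8 lower with LIF, and 6 higher and 8 lower with OSM. The endoderm genes Gata4 (0.931 TPM without cytokine, 6.73 with LIF and 4.71 with OSM) and Lama1 (4.04, 34.2 and 19.03 TPM) were among those that rose. The 12 primed epiblast markers summed to 436 to 438 TPM without cytokine against 242 to 286 in the other groups. Of these 12, 10 were lower and 2 (Dnmt3b and Sox4) higher with either cytokine. The 10 neural markers summed to 72.3 to 87.2 TPM, a narrow range that hides changes in both directions. Of the 8 tested, 5 were higher and 3 lower with LIF, and 5 higher and 2 lower with OSM. Nes fell (31.6 TPM without cytokine, 12.6 with LIF and 17.2 with OSM) and Tubb3 rose (28.2, 49.1 and 51.5 TPM). Of all genes, 42.2% were higher and 25.9% lower with LIF, and 42.9% and 25.4% with OSM.

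The 20 fibroblast markers are collagens and mesenchymal factors that feeder cells or mesenchyme-like cells would carry. They summed to 140 to 148 TPM without cytokine, 516 to 521 with LIF and 722 to 731 with OSM, with 0 of the 20 at 0 in all libraries and 1 under 1 TPM in all. The order of this sum was that of Hmga2, and also that of Lin28a and Hmga1. Of the 19 tested, 17 were higher and 2 lower with either cytokine than without, and 5 were higher and 0 lower with OSM than with LIF. The shares of all genes were 42.2% and 25.9% with LIF, 42.9% and 25.4% with OSM, and 0.463% and 0.129% for OSM against LIF. The median log2 fold change of the 19 was 0.44 for OSM against LIF, beside 0.40 for Hmga2. Against -LIF-ESCs the median was 2.27 with LIF and 2.75 with OSM, beside 0.99 and 1.39 for Hmga2. Hmga2 is also expressed in embryonic fibroblasts, and Thbs1, Ccnd2, Cd44, Il6 and Igf2 can be. Whether feeder cells were kept under the compared cultures is not given in the sources used here, and the part of such cells in these differences was not tested.

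**Figure D5:**
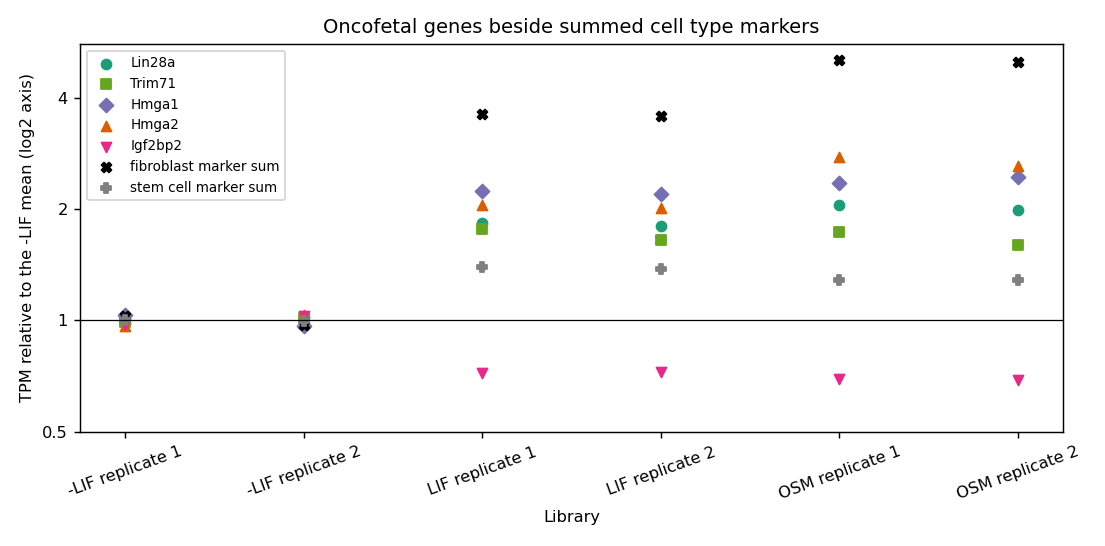
TPM of 5 oncofetal genes and of the summed stem cell and fibroblast markers in each library, relative to the mean of the -LIF libraries, on a log2 axis. The fibroblast marker sum, Lin28a, Hmga1 and Hmga2 rise in 2 steps from -LIF to LIF to OSM. The stem cell marker sum is highest in LIF, and Igf2bp2 lies below 1 in every cytokine library.

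Promoter sequences, the 250 bases before each start in RefSeq (GRCm38.p6), were matched for 7 of the 8 oncofetal genes and searched on both strands for 6 motifs, because LIF and OSM signal through STAT3, which is known to bind TTCNNNGAA. Among 32851 promoters, 7.02% held TTCNNNGAA, 12.4% TATAAA, 33.8% CCAAT, 32.7% GGGCGG, 6.02% CACGTG and 1.60% ATGCAAAT, the octamer read by POU factors. Lin28a alone of the 7 held TTCNNNGAA, with 2 matches, and Hmga1 alone held the octamer, on the other strand. They are shown with the match in capitals, on the strand of the gene. They began 224 and 14 bases before the RefSeq start of Lin28a (minus strand) and 24 before the nearer RefSeq start of Hmga1. The second Lin28a stretch and the Hmga1 stretch lie inside the GENCODE spans given above for these genes, whose starts differ from those of RefSeq.
Lin28a (chr4:134019022-134019050): aatctcaaggTTCTGGGAAgggacacccc
Lin28a (chr4:134018817-134018840): tagcagcctcTTCTCCGAAccacc
Hmga1 (chr17:27556540-27556567): ccccgggctcATTTGCATggccccgccc
No TATAAA was found in these windows. CACGTG, the E-box of MYC proteins, was found in Lin28b and Igf2bp3. GGGCGG, the GC box, was found in Hmga1, Hmga2, Igf2bp2 and Trim71, 3 of which were higher and 1 lower with cytokine. These are matches of letters in a window, and binding was not measured.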

How the data were processed

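mRNA of mESCs at P10 was sequenced after poly-T purification, in 2 libraries from each of 3 culture conditions. The extraction text of the labels speaks of ovaries, while every other label names embryonic stem cells. The authors trimmed reads with Trimmomatic, aligned them to mm10 with HISAT2 and counted them with featureCounts, and the table they deposited holds TPM values. The annotation and the handling of reads that match several genes are not given in the sources used here.

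Expression was compared as log2(TPM + 1), a scale that understates the fold changes of low genes, with limma 3.58.1 (R 4.3.3, eBayes with a trend) over the 18556 genes that reached 1 TPM in 2 or more libraries. All 6 libraries entered 1 fit, which left 3 residual degrees of freedom (median residual SD 0.0863). The Benjamini-Hochberg adjustment ran over all genes tested, and calls required an adjusted p under 0.05, alone or together with a log2 fold change of 1 or more up or down. The p-values measure the spread between biological replicates of 1 cell line. The sources used here do not say at which passage the replicate cultures were separated. The fit was tested on simulated data in which far fewer genes changed than were called here against -LIF-ESCs, so that test does not cover these comparisons.

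Reads were recovered as whole multiples of 1 step per library, using exon lengths of GENCODE M21, in which 28405 symbols (99.4%) were found once. Of their values, 95.4% were whole within 0.02 of a read. Hmga1 and Igf2bp2 did not come out whole, and their reads are approximate. Sequences came from RefSeq (GRCm38.p6) for microRNAs and promoters and from GENCODE M21 for 3′ UTRs and for the windows of 50 bases.

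The 8 genes and the lists of related genes and markers were chosen with earlier results of these data known. Besides the 8 genes, up to 3 genes with the highest and up to 3 with the lowest log2 fold change among those past the adjusted p in each list are named, in any case Tut4, Tut7, Dis3l2, Msi1, Igf2, H19, Myc and Mycn, and the 2 nearest genes by profile. A gene that this rule names is not reported here. As alternatives, the pseudocount was set to 0.1, the filter was dropped or raised to 5 TPM, the trend was left out, each comparison was fitted on its own groups, the replicate number was added as a block, libraries were rescaled by their median ratio (size factors 0.916 to 1.07), recovered reads were tested with limma's voom, the fold limit was dropped, and each replicate was left out in turn. Figures were drawn with matplotlib 3.10.9 in Python 3.11.15.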

Additional observations from a re-analysis of the deposited data

Results flagged for a closer look

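Among the lists of related genes, 2 let-7 targets responded differently to the cytokines, by the limma test of the difference between OSM-ESCs and LIF-ESCs. Of all genes tested, 0.463% were higher and 0.129% lower with OSM by the adjusted p in that test. Ccnd2, a G1 cyclin gene, was at 7.63 and 7.79 TPM without cytokine, 26.3 and 25.6 with LIF and 37.7 and 36.5 with OSM, and its log2 fold change was 0.50 higher with OSM than with LIF (adjusted p = 0.0358). Thbs1, a matrix protein gene, was at 69.9 and 69.3 TPM without cytokine, 297 and 292 with LIF and 422 and 401 with OSM, a difference of 0.48 (adjusted p = 0.026). The summed fibroblast markers were also higher in OSM-ESCs (722 to 731 TPM) than in LIF-ESCs (516 to 521 TPM), and their part in both differences was not tested. Groups of 2 libraries are too small to look for a library that stands apart.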

How the results depend on the processing

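Of 360 recomputed differences of the 8 oncofetal genes, 342 kept their direction and their side of the threshold, 13 newly passed it, 5 turned direction and 0 lost it. Those that newly passed were Igf2bp1 and Igf2bp3 against -LIF-ESCs after rescaling and under voom, Hmga2 (5 TPM filter, voom), Lin28a and Hmga1 (voom) in OSM-ESCs against LIF-ESCs, and Lin28b in OSM-ESCs against -LIF-ESCs without OSM replicate 2 (0.32, limma adjusted p = 0.0473). The 5 that turned were uncalled values near 0 in OSM-ESCs against LIF-ESCs, Trim71 at 0.017 without LIF replicate 1 and 0.024 without OSM replicate 2, Igf2bp1 at -0.010 without LIF replicate 2 and -0.013 without OSM replicate 1, and Lin28b at -0.075 without OSM replicate 1. With 1 replicate left out, these ran to 0.14 (Lin28b), -0.092 (Trim71) and 0.071 (Igf2bp1) at the other end. Of the oncofetal genes, 1 was higher and 0 lower by the full rule in LIF-ESCs against -LIF-ESCs. The adjusted p alone gave 4 and 1, a pseudocount of 0.1 gave 2 higher, rescaling gave 0, summing Hmga1 with Hmga1b gave 0, and leaving out 1 replicate gave 1 to 2, with 2 without -LIF replicate 2 or LIF replicate 2. In OSM-ESCs against -LIF-ESCs, the adjusted p alone gave 1 lower in place of 0. There Lin28a fell under the fold limit after rescaling (0.81), as did Hmga1 when summed with Hmga1b (0.76).

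Over all genes, the adjusted p alone called 7822 up and 4809 down with LIF, 7958 and 4722 with OSM, each against -LIF-ESCs, and 86 and 24 between OSM-ESCs and LIF-ESCs. For lower genes against -LIF-ESCs, the 5 TPM filter, which tests fewer genes, gave 996 in LIF-ESCs, and voom gave 2316 and 2334. Between OSM-ESCs and LIF-ESCs, where 6 were higher and 9 lower by the full rule, a pseudocount of 0.1 gave 3 and 3, no filter 13 higher, the 5 TPM filter 3 higher, eBayes without a trend 4 lower, voom 22 and 28, a fit of only these groups 0 and 0, and leaving out 1 replicate 0 to 1 higher and 0 lower. The cause was not tested. With the replicate block, 0 and 0 were called there. Same-numbered libraries did not deviate together (r = -0.0433, -0.0234 and 0.0265). With 2 libraries in a group, this cannot show whether the numbers mark a pairing. The block changed no call of an oncofetal gene. Depth limits the let-7 gene models, at 0 to 18 reads a library.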
